A study of Mus musculus with 12 samples.

Results

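Notch1, Notch2, Notch3, Dll1, Dll4, Jag1, Jag2, Hes1, Hey1 and Rbpj are 4 ligand, 3 receptor and 2 target genes of the Notch pathway and 1 gene for its nuclear effector. They were picked by symbol, with earlier results of these data known. All 10 were found among the 17175 genes measured by RNA-seq in mouse small intestine. The study asked how bone morphogenetic protein (BMP) signalling relates to villus length along the gut. The groups were Bmpr1a cKO proximal, WT proximal, Bmpr1a cKO distal and WT distal small intestine, with 3 libraries each. Bmpr1a encodes a type I BMP receptor, and cKO is the labels' term for its conditional knockout. Strain, age, sex, Cre driver and the deleted part of Bmpr1a are not given in the sources used here. The labels do not say whether the tissue was whole wall or stripped epithelium.

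Notch signalling passes between touching cells. A Delta-like or Jagged ligand on a sending cell binds a Notch receptor on its neighbour, the receptor is cut, and its intracellular part joins the DNA-binding protein RBPJ to switch on targets such as Hes1. In the intestinal crypt, Notch signalling keeps stem and progenitor cells dividing, and HES1 represses Atoh1, the switch to the secretory lineages. Dll1 and Dll4 are the ligands known to act there together, through Notch1 and Notch2.

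The libraries held between 11242024 and 17722756 reads. Bmpr1a itself had scaled read counts of 833 to 1087 in cKO proximal and 772 to 1029 in WT proximal libraries. In the distal segment it had 486 to 668 in cKO and 438 to 631 in WT libraries. Neither genotype comparison of Bmpr1a passed the test (limma adjusted p = 0.983 proximal and 0.852 distal), so the gene-level count does not check the labels, and cKO and WT here are the groups as labelled. Mitochondrial genes took 9.75 to 14.8% of reads in cKO proximal, 17.4 to 26.0% in WT proximal, 9.95 to 27.7% in cKO distal and 22.3 to 37.7% in WT distal libraries. Both cKO libraries numbered 1 held 0 reads of Y-linked genes, against at least 1251 in every other library. The labels do not state that each library stands for its own animal, and p-values therefore measure the spread between libraries, which may be technical.

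The promoters of 3 ligand genes and of Rbpj are shown because the ligands moved in different directions while Rbpj did not pass the test in either segment, and because 2 of these windows carry a motif of the pathway or of BMP SMADs. Each is the 250 bases before a transcription start from RefSeq on GRCm38.p6, written 5′ to 3′ along the gene's strand. Entries were matched for 8 of the 10 genes, with 10 distinct windows in all, and Hes1 and Hey1 were not matched. Capitals mark TGGGAA, the core of the RBPJ site, and GGCGCC, the core of a GC-rich element bound by BMP SMADs, on either strand. The windows are Dll1 start site 1 at chr17:15375824-15376073 (minus strand), Jag1 at chr2:137116521-137116770 (minus), Jag2 at chr12:112929496-112929745 (minus) and Rbpj start site 1 at chr5:53590096-53590345 (plus).
Dll1: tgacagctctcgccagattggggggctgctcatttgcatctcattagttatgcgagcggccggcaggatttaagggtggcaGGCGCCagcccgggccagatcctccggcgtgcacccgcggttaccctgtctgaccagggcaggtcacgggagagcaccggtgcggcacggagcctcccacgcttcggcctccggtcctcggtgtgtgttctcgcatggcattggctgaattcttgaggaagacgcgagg
Jag1: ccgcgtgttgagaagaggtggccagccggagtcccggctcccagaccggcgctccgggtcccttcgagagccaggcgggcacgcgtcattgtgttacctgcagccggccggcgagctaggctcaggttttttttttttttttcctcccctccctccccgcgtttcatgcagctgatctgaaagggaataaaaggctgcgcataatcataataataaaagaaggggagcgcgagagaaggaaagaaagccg
Jag2: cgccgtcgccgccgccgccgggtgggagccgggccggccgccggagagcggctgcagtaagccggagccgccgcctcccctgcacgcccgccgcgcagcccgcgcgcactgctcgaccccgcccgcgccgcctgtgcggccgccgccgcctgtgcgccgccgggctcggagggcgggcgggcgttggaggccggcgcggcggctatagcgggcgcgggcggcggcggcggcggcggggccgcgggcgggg
Rbpj: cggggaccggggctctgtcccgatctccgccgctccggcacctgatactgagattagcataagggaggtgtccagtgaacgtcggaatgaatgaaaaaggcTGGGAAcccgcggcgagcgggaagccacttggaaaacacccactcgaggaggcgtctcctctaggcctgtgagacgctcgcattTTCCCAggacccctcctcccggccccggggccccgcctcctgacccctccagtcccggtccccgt

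GGCGCC occurred in the Dll1 window 169 bases before the start, and 9.586% of all 32851 promoter windows hold it. TGGGAA occurred in the Rbpj window 149 and 65 bases before the start, and 21.59% of all windows hold it. Dll1 start site 2 had no GGCGCC, and Rbpj start site 2 carried TGGGAA 205 bases before its start. No other of the 10 windows held either motif. The windows shown were chosen partly for these motifs, so their presence in them is a description only. By the gene coordinates given below, the Dll1 start site 1 window lies inside the gene and the start site 2 window upstream of it. The Rbpj windows of start sites 1 and 2 lie inside the gene. By the same coordinates the Jag2 window lies inside Jag2, and the Jag1 window spans the start of Jag1. The SMAD palindrome GTCTAGAC, the N-box CACNAG bound by HES proteins and the TATA box TATAAA were searched too, on both strands. CACNAG occurred in the Dll4, Notch1, Notch2 and Notch3 windows and in 36.67% of all windows, and GTCTAGAC and TATAAA, in 0.1674% and 12.37% of all windows, occurred in none of the 10. None of these motifs was found in the Jag1 and Jag2 windows, which says only that these letters are absent from them. The Jag2 window held 54 CpG pairs at 87.2% GC, and 0.01522% of all windows hold that many. The Jag1 window held 20 at 57.2% GC, a number reached in 17.95% of windows, and the median over all windows was 6.

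In the distal segment, 7 of the 10 Notch genes changed between cKO and WT. Dll1, Jag1, Dll4 and Hes1 rose, and Notch2, Jag2 and Hey1 fell. Of all 17175 genes, 25% passed the same test there, 13.3% higher and 11.7% lower in cKO. In the proximal segment 2 of the 10 changed, and both, Jag1 and Hes1, rose, beside 8.26% of all genes, 4.21% higher and 4.05% lower. With TMM scaling, which moved the proximal median of all genes by -0.11, the proximal split of 723 higher and 695 lower genes was 567 higher and 861 lower. TMM moved the distal median by -0.087, and the distal split of 2279 higher and 2018 lower was then 2139 higher and 2295 lower. The median log2 fold change of the 10 genes was -0.07 in the distal and -0.14 in the proximal segment, against 0.06 and 0.08 over all genes. In this bulk tissue, fewer cells of a type and less RNA per cell cannot be told apart. A scaled read count here is the deposited value, and a gene was called changed at an adjusted p under 0.05 from limma on log2(value + 1), adjusted over all genes. Fold changes on that scale understate those of the lowest genes, Hey1 among them.

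**Figure D1:**
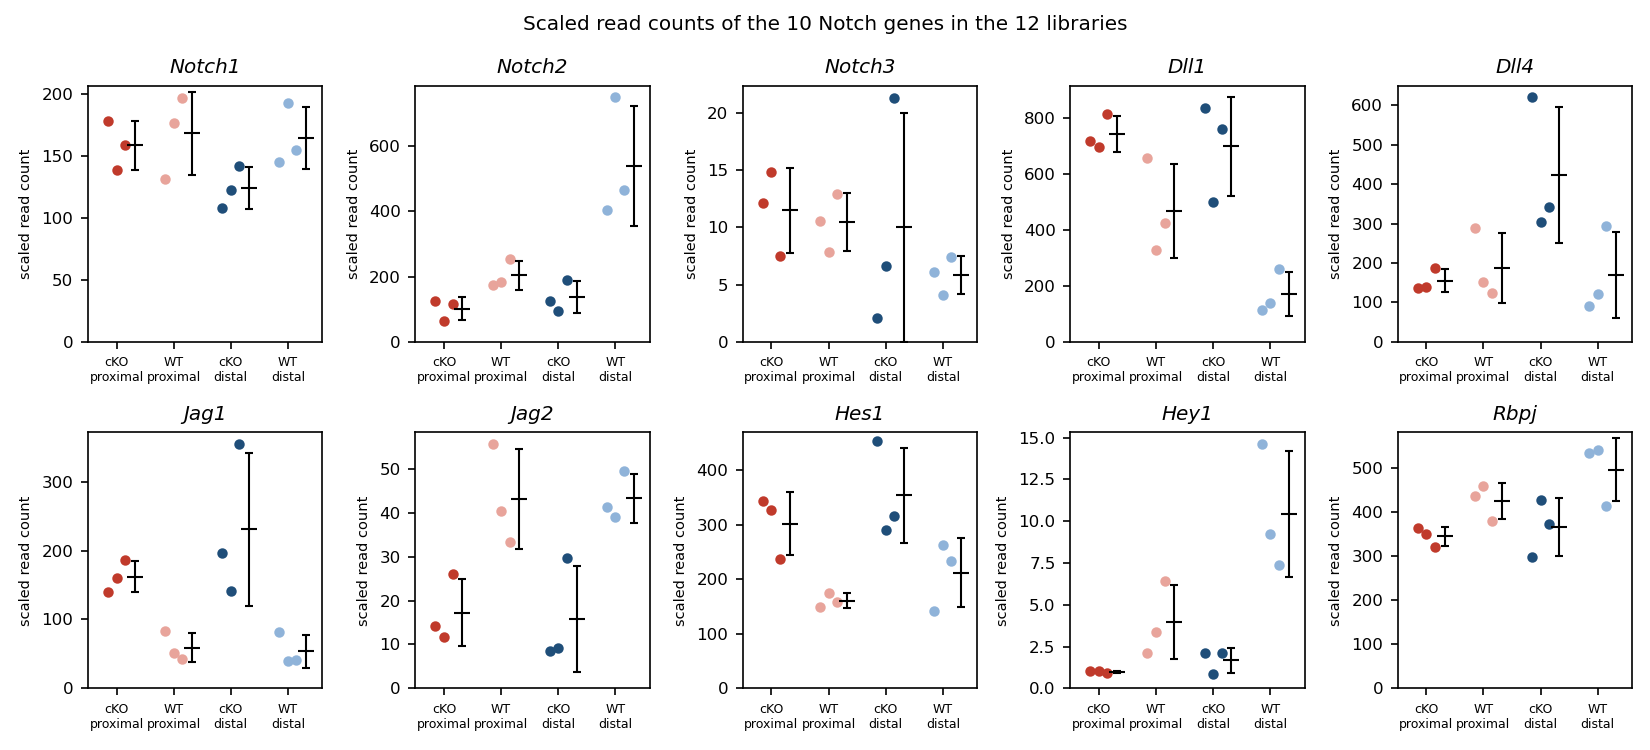
Scaled read counts of the 10 Notch genes (y axes, linear, from 0) in the 12 libraries, with cKO left of WT within each segment; points are libraries, and the black marks are the mean and SD of 3 libraries. Dll1 sits at 499 to 835 in cKO distal libraries, against 113 to 260 in WT distal libraries.

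**Figure D2:**
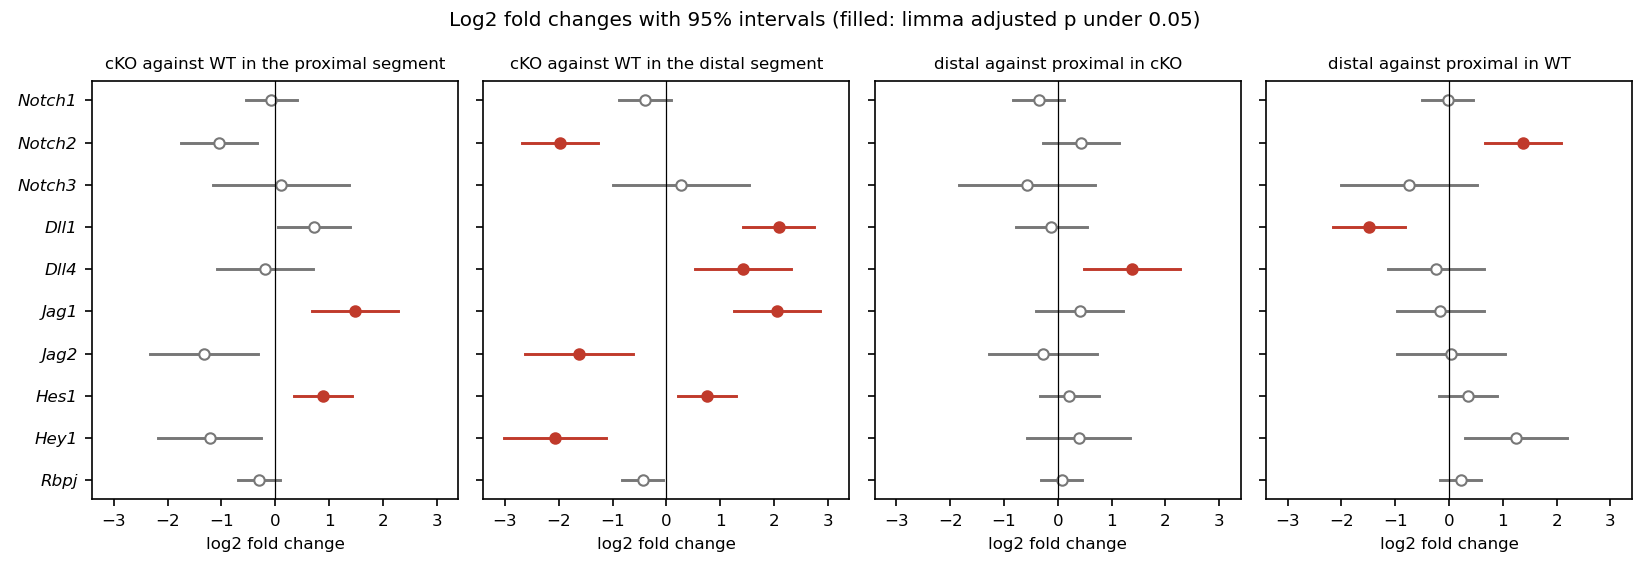
Log2 fold changes of the 10 Notch genes in 4 comparisons (x axes, the group named first over the other), with 95% intervals from limma; filled points have an adjusted p under 0.05. In the distal genotype comparison 4 filled points lie right of 0 and 3 left of it.

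Dll1 (chromosome 17, 15367354 to 15376872 on mm10, minus strand), whose start site 1 window above holds GGCGCC, encodes a Delta-like ligand carried by secretory progenitors of the crypt. In the distal segment Dll1 had scaled read counts of 835, 499 and 762 in cKO libraries, against 113, 139 and 260 in WT libraries. Every cKO value lay above every WT value. Dll1 rose 4.09-fold on the means, a log2 fold change of 2.09 ± 0.31 (SE; limma adjusted p = 0.000322). Proximal libraries had 717, 697 and 816 in cKO and 656, 329 and 423 in WT. These groups did not overlap either, but the log2 fold change of 0.72 (95% interval 0.06 to 1.38) missed the threshold (limma adjusted p = 0.164). Between segments of the WT gut, Dll1 fell in the distal segment by 1.49 on the log2 scale (SE 0.31, limma adjusted p = 0.00347). Within cKO the same difference was -0.12 (95% interval -0.78 to 0.54; limma adjusted p = 0.865), and the 2 segments overlapped.

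Dll4 (chromosome 2, 119325784 to 119335962, plus strand) encodes the other Delta-like ligand of the crypt and is also a ligand of sprouting vessels. Distal cKO libraries had scaled read counts of 621, 305 and 342, against 91.3, 122 and 294 in distal WT libraries. The groups did not overlap, though the lowest cKO and highest WT libraries were close. Dll4 rose 2.50-fold on the means, with a log2 fold change of 1.43 ± 0.42 (SE; limma adjusted p = 0.0224). The call was lost without cKO distal 1 (adjusted p = 0.116), WT distal 1 (0.106) or WT distal 2 (0.0866), without both cKO libraries numbered 1 (0.144), and with mitochondrial share as a covariate (0.389). In the proximal segment the counts were 137, 139 and 188 in cKO and 289, 152 and 124 in WT, overlapping, with a difference of -0.20 (95% interval -1.09 to 0.69; limma adjusted p = 0.806). Exons of Dll4 overlap those of Gm14207 on the opposite strand, whose scaled read counts ran from 68.1 to 112 in cKO distal, 42.6 to 90.7 in WT distal, 33.6 to 58.3 in cKO proximal and 23.6 to 52.6 in WT proximal libraries. The strand setting of the counting is not given in the sources used here.

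Jag1 (chromosome 2, 137081456 to 137116644, minus strand) encodes a Jagged ligand. It passed the test in both segments. Distal scaled read counts were 197, 141 and 355 in cKO libraries, against 81.6, 39.0 and 41.1 in WT libraries. Proximal counts were 140, 160.0 and 186 in cKO libraries, against 83.1, 51.6 and 43.0 in WT libraries. In each segment every cKO library lay above every WT library. The log2 fold change was 2.06 ± 0.38 distally (SE; limma adjusted p = 0.00146) and 1.48 ± 0.38 proximally (SE; limma adjusted p = 0.0286), 4.29-fold and 2.74-fold on the means. The proximal call was lost without WT proximal 2 (adjusted p = 0.0938), WT proximal 3 (0.0998), cKO proximal 1 (0.0579), cKO proximal 2 (0.0836) or cKO proximal 3 (0.0934), and without both cKO libraries numbered 1 (0.0759). With TMM scaling it was 0.0562, and with edgeR's quasi-likelihood test 0.0679.

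Jag2 (chromosome 12, 112907819 to 112929776, minus strand), the gene of the CpG-dense window above, encodes the other Jagged ligand and moved the other way. In distal libraries Jag2 had scaled read counts of 8.48, 9.13 and 29.8 in cKO, against 41.4, 39.0 and 49.5 in WT. All cKO values lay below all WT values, with cKO distal 3 the closest. Jag2 fell by 1.62 on the log2 scale (SE 0.47, limma adjusted p = 0.0212). This call was lost without cKO distal 1 (adjusted p = 0.101), cKO distal 2 (0.0815), WT distal 1 (0.0536) or WT distal 2 (0.0535), without both cKO libraries numbered 1 (0.128), with the 2 distal groups alone in the fit (0.0518) and with mitochondrial share as a covariate (0.311). Proximally Jag2 had 14.1, 11.7 and 26.1 in cKO and 55.8, 40.4 and 33.3 in WT. Those groups did not overlap, and the difference of -1.32 (95% interval -2.32 to -0.32) had a limma adjusted p of 0.0979, or 0.0415 without cKO distal 3.

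Epithelial and crypt markers are set beside the ligands and Hes1. Among all genes, 13.3% were higher and 11.7% lower in cKO distally, and 4.21% higher and 4.05% lower proximally. Of 7 epithelial markers, 3 rose in the distal segment (Cdh1, Krt19 and Epcam) and none fell. Their summed scaled read counts ran from 173465 to 275240 in cKO and 110013 to 186687 in WT distal libraries, which overlapped. In the proximal segment 1 of 7 rose (Krt19), with sums of 135412 to 158616 in cKO and 124014 to 158286 in WT libraries. Of 7 crypt stem cell markers, 3 rose distally (Smoc2, Rgmb and Slc12a2) and 2 fell (Axin2 and Ascl2), and their sums ran from 1780 to 2507 in cKO and 1103 to 1536 in WT distal libraries, without overlap. Proximally 1 rose (Smoc2) and the same 2 fell, with sums of 1048 to 1283 in cKO and 760 to 1344 in WT libraries. None of the 8 secretory progenitor and goblet cell markers passed the test in either segment, with distal sums of 132651 to 251246 in cKO and 85929 to 221447 in WT. Of 7 enteroendocrine markers, 4 fell proximally (Sct, Neurod1, Tph1 and Pax4) and 2 distally (Sct and Tph1). In each segment 1 of 4 Paneth cell markers (Ang4) and 1 of 6 tuft cell markers (Ptgs1) fell. No enteroendocrine, Paneth or tuft cell marker rose between genotypes. The part of these cells in the ligand and Hes1 differences was not tested.

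Notch2 (chromosome 3, 98013527 to 98150361, plus strand) encodes a receptor of crypt cells that is also known for its role in marginal zone B cells. Its distal scaled read counts were 126, 94.6 and 190 in cKO libraries, against 404, 749 and 466 in WT libraries. No cKO value reached even the lowest WT value. Notch2 fell by 1.98 on the log2 scale (SE 0.33, limma adjusted p = 0.000766), to 137 ± 48.8 in cKO against 540 ± 184 in WT (SD, n = 3 each). Proximal counts were 126, 62.5 and 117 in cKO and 175, 183 and 255 in WT. They did not overlap, and the difference of -1.04 (95% interval -1.75 to -0.33) missed the threshold (limma adjusted p = 0.0665). It passed with TMM scaling (adjusted p = 0.0475), with DESeq2 (0.019) and without cKO distal 3 (0.0493). Within WT, Notch2 rose in the distal segment by 1.37 ± 0.33 (SE; limma adjusted p = 0.00822), and within cKO the difference was 0.43 (95% interval -0.28 to 1.14; limma adjusted p = 0.47).

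B cell and plasma cell markers, like Notch2, were lowest in the cKO groups and highest in WT distal tissue. All 9 of them fell in cKO in the distal segment, 5 of 9 fell in the proximal segment, and all 9 were higher in distal than in proximal WT tissue. The shares of all genes were 11.7% lower in cKO distally, 4.05% lower in cKO proximally and 11.9% higher in distal WT tissue. Their summed scaled read counts ran from 254 to 639 in cKO distal, 9558 to 23735 in WT distal, 449 to 746 in cKO proximal and 1549 to 4821 in WT proximal libraries. None of the 9 was at 0 reads in all libraries of a group. Of 8 macrophage and dendritic cell markers 4 fell distally and 5 proximally, and of 9 T cell markers 5 fell distally and 1 proximally. The part of these cells in the Notch2 difference was not tested.

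**Figure D3:**
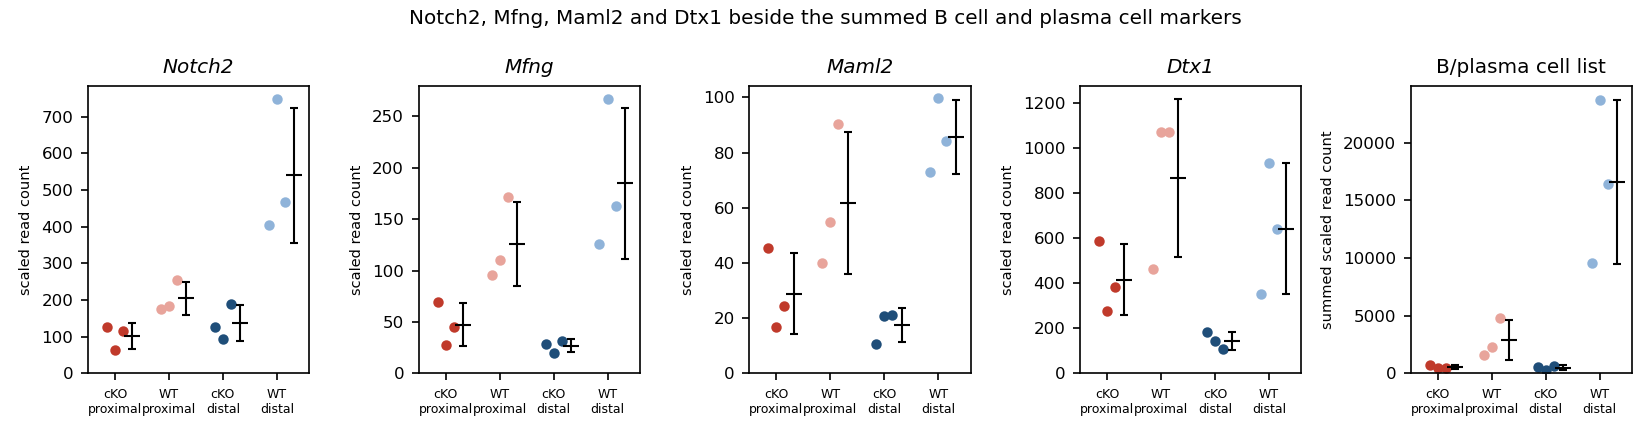
Scaled read counts of Notch2, Mfng, Maml2 and Dtx1 and, in the right panel, the summed counts of 9 B cell and plasma cell markers (y axes, linear, from 0) in the 12 libraries; points are libraries and black marks the mean and SD of 3. The marker sum lies between 9558 and 23735 in WT distal libraries and at or below 4821 in all others.

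Notch1 (chromosome 2, 26457903 to 26516663, minus strand) encodes the main receptor of crypt stem cells. Its distal scaled read counts were 108, 122 and 141 in cKO libraries, against 145, 192 and 155 in WT libraries. The cKO values all lay below the WT values, by a narrow margin, and the difference of -0.40 (95% interval -0.88 to 0.08) missed the threshold (limma adjusted p = 0.21). Proximally Notch1 had 178, 139 and 158 in cKO and 132, 176 and 197 in WT, overlapping, with a difference of -0.07 (95% interval -0.55 to 0.40; limma adjusted p = 0.869).

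Notch3 (chromosome 17, 32120820 to 32166852, minus strand) encodes a receptor known from vascular smooth muscle. It was low throughout. Distal scaled read counts were 2.12, 6.64 and 21.3 in cKO and 6.09, 4.11 and 7.38 in WT, and proximal ones were 12.1, 14.8 and 7.46 in cKO and 10.5, 7.86 and 12.9 in WT. The groups overlapped in both segments, with differences of 0.27 (95% interval -0.99 to 1.53; limma adjusted p = 0.78) and 0.10 (95% interval -1.16 to 1.37; limma adjusted p = 0.937). With TMM scaling the proximal value turned to -0.00409. Exons of Notch1 and Notch3 overlap opposite-strand genes (0610009E02Rik, 1 to 8 reads a library, and Gm17276, 0 to 14). Gm17276 summed to 31 reads in cKO proximal, 14 in WT proximal, 8 in cKO distal and 0 in WT distal libraries. Notch3 summed to 31, 26, 27 and 13 in the same order. Exons of Dll1 overlap A930024N18Rik and those of Notch1 also Gm13568, both on the opposite strand. Exons of Notch2 overlap Gm42820 on the same strand. A930024N18Rik, Gm13568 and Gm42820 were not among the genes measured.

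Hes1 (chromosome 16, 30064384 to 30067796, plus strand) encodes the transcriptional repressor that carries Notch signals in the crypt. It rose in cKO in both segments. Scaled read counts were 343, 326 and 237 in cKO proximal libraries, against 148, 175 and 159 in WT proximal libraries. Distally they were 453, 290 and 317 in cKO, against 141, 262 and 233 in WT. The 2 genotypes did not overlap in either segment. Hes1 rose 1.88-fold proximally, a log2 fold change of 0.89 ± 0.25 (SE; limma adjusted p = 0.0462), and 1.67-fold distally, 0.76 ± 0.25 (SE; limma adjusted p = 0.0429).

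Both Hes1 calls lay close to the threshold. The proximal call was lost without cKO proximal 1 (adjusted p = 0.143), cKO proximal 2 (0.151), cKO proximal 3 (0.0529), WT proximal 1 (0.0949), WT proximal 2 (0.096), WT proximal 3 (0.112) or cKO distal 2 (0.054), without both cKO libraries numbered 1 (0.138) and with mitochondrial share as a covariate (0.29). The distal call was lost without cKO distal 1 (0.194), WT distal 1 (0.174), cKO proximal 1 (0.0551), cKO proximal 2 (0.054), WT proximal 2 (0.0542) or WT proximal 3 (0.0549), without both cKO libraries numbered 1 (0.228), with the distal groups alone in the fit (0.0982) and with mitochondrial share as a covariate (0.319). The log2 fold change of Hes1 stayed positive in all of these. Atoh1, the gene HES1 represses, did not pass the test in either segment.

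Hey1 (chromosome 3, 8663359 to 8667256, minus strand) encodes a Notch target known from endothelium. It was covered by few reads. Distal libraries had 1, 0 and 1 reads in cKO, against 11, 8 and 6 in WT. The 25 reads of the WT distal group were 14.1 times the 2 of the cKO distal group after depth, with an exact 95% counting interval of 3.51 to 123. Hey1 fell (limma adjusted p = 0.00403), and the call was lost with mitochondrial share as a covariate (adjusted p = 0.117). Of the 21 alternatives with a value for the distal call, DESeq2 among them, only that 1 changed it. DESeq2 gave no adjusted p for Hey1 in the proximal comparison or the interaction. In the proximal segment all 3 cKO libraries had 0 reads, and WT libraries had 1, 2 and 5, which as a group lies under the 9 reads taken as the floor, so no fold is given (limma adjusted p = 0.106).

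Hey1, Dll4 and Notch3 are known from vessels, so vascular markers are given beside them. Summed scaled read counts of 11 endothelial markers ran from 138 to 264 in cKO distal and 399 to 581 in WT distal libraries, and from 120 to 178 in cKO proximal and 260 to 416 in WT proximal libraries. The sums did not overlap between genotypes, but of the 11 only Pecam1 and Esam passed the test distally and only Pecam1 proximally, all lower in cKO. Among all genes 25% passed distally, 11.7% of them lower in cKO as a share of all, and 8.26% proximally, 4.05% lower. The median log2 fold change of the 11 was -0.12 distally and -0.76 proximally, and 5 of 11 estimates were positive distally. The 11 pericyte and smooth muscle markers summed to 231 to 385 in cKO distal, 313 to 631 in WT distal, 73.7 to 87.9 in cKO proximal and 118 to 249 in WT proximal libraries, and none passed the test between genotypes. The distal sums of those markers overlapped. The part of these cells in the Hey1, Jag2 and Dll4 values was not tested.

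Rbpj (chromosome 5, 53466152 to 53657362, plus strand) encodes the DNA-binding partner of every Notch receptor. Its distal scaled read counts were 298, 427 and 374 in cKO libraries, against 535, 542 and 415 in WT libraries. These overlapped, and the difference of -0.44 (95% interval -0.83 to -0.06) missed the threshold (limma adjusted p = 0.0862). It passed with DESeq2 (adjusted p = 0.0345) and without WT distal 3 (0.0443). Proximally Rbpj had 364, 352 and 321 in cKO and 438, 459 and 379 in WT, without overlap but with a difference of -0.30 (95% interval -0.68 to 0.09; limma adjusted p = 0.325). Processed pseudogenes Rbpj-ps1 and Rbpj-ps3 lie on chromosomes 4 and 6, and how reads shared with them were counted is not given in the sources used here.

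The order of the genes by level, in reads per kb of exon scaled to library depth (RPKM), differed between groups in the places of Dll1, Notch2 and Jag1 above all. Exon length is the union of all annotated exons, 12750 bases for Rbpj and 5827 for Jag1, and the order within a group depends on it. In scaled read counts Rbpj averaged 345 and Jag1 162 in cKO proximal libraries. In cKO distal tissue Hes1 (10.4) and Dll1 (9.92) led, followed by Dll4 (6.48), Jag1 (2.40), Rbpj (1.78), Notch2 (0.765), Notch1 (0.530), Jag2 (0.131), Notch3 (0.0701) and Hey1 (0.0125). In WT distal tissue Hes1 led at 7.13, followed by Notch2 (3.46), Dll4 (2.96), Dll1 (2.74) and Rbpj (2.71), whose libraries overlapped from each to the next, and then by Notch1 (0.793), Jag1 (0.637), Jag2 (0.419), Hey1 (0.201) and Notch3 (0.0406). Dll1 and Hes1 led in both proximal groups, at 10.4 and 8.71 in cKO and 6.51 and 4.62 in WT, with overlapping libraries. Dll4 came next in both proximal groups, at 2.37 in cKO and 2.85 in WT.
Jag1 stood just above Rbpj in cKO proximal tissue, at 1.64 beside 1.60, and lower in WT proximal tissue at 0.586, below Rbpj (1.96), Notch2 (1.11) and Notch1 (0.692). Neighbours whose libraries overlapped cannot be ordered beyond their spread.

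Between segments, 1 of the 10 genes changed within cKO, where 10.5% of all genes did, 4.16% higher and 6.36% lower in the distal segment. Dll4 rose in the distal segment, with 621, 305 and 342 in distal libraries against 137, 139 and 188 in proximal libraries, and no overlap. Its log2 fold change was 1.39 ± 0.42 (SE; limma adjusted p = 0.048). That call was lost without cKO distal 1 (adjusted p = 0.168), cKO distal 2 (0.0608), cKO distal 3 (0.0769), cKO proximal 1 (0.148), cKO proximal 2 (0.122), cKO proximal 3 (0.0754), WT distal 2 (0.0618) or WT proximal 2 (0.0608), and without both cKO libraries numbered 1 (0.337). Within WT 2 of the 10 changed, Notch2 up and Dll1 down as given above, where 24.1% of all genes did, 11.9% higher and 12.2% lower in the distal segment. Hey1 had 25 reads in WT distal and 8 in WT proximal libraries and missed the threshold (limma adjusted p = 0.0557). It passed with the replicate number as a block (adjusted p = 0.036), with a pseudocount of 5 (0.0327) and without WT proximal 3 (0.0317).

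The genotype effect was also compared between segments by an interaction term, which passed for 0 of the 10 genes and 0.576% of all genes. At an unadjusted p under 0.05 limma, edgeR and DESeq2 each gave 2 of the 10, Dll1 and Dll4, and 0 after adjustment. For Dll1 the genotype effect was larger distally by 1.37 on the log2 scale (95% interval 0.43 to 2.31; limma adjusted p = 0.166), and without WT distal 3 it passed (adjusted p = 0.0409). For Dll4 the difference was 1.62 (95% interval 0.36 to 2.88; limma adjusted p = 0.23). For Notch2 it was -0.94 (95% interval -1.94 to 0.06; limma adjusted p = 0.41). The genotype effects on the 10 genes are therefore not shown to differ between segments.

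Among 43 other Notch pathway genes, 8 rose and 7 fell in cKO in the distal segment, where 13.3% of all genes were higher and 11.7% lower. The 8 that rose were Notch4, another receptor, Hes6, Pofut1, which adds O-fucose to Notch, the gamma-secretase genes Ncstn and Aph1a, and the ubiquitin ligase genes Mib1, Neurl1b and Neurl3, of which Mib1 is known to drive ligand uptake. Those that fell were the fringe genes Mfng and Lfng, the Deltex genes Dtx1 and Dtx3, the coactivator Maml2, the target Hes5 and Fbxw7, whose product marks cleaved Notch for breakdown. Mfng averaged 26.8 ± 6.19 in cKO against 185 ± 73.5 in WT distal libraries and fell by 2.70 (limma adjusted p = 0.000245). Ncstn averaged 3601 ± 738 in cKO against 1495 ± 357 in WT and rose by 1.27 (limma adjusted p = 0.00115; SD, n = 3 each). Dtx3 fell by 1.42 (limma adjusted p = 0.0015) and Maml2 by 2.27 (limma adjusted p = 0.00167). Mfng, Maml2 and Dtx1 are plotted beside the B cell and plasma cell marker sums, and the part of those cells in their values was not tested. Unlike those markers, none of these genes passed the test between WT segments. WT proximal and distal means were 126 and 185 for Mfng and 61.8 and 85.7 for Maml2. For Dtx1 they ran the other way, at 868 and 643. Hes5 rested on 2 reads in cKO distal and 15 in WT distal libraries. The median of the 43 was 0.12, against 0.06 over all genes.

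**Figure D4:**
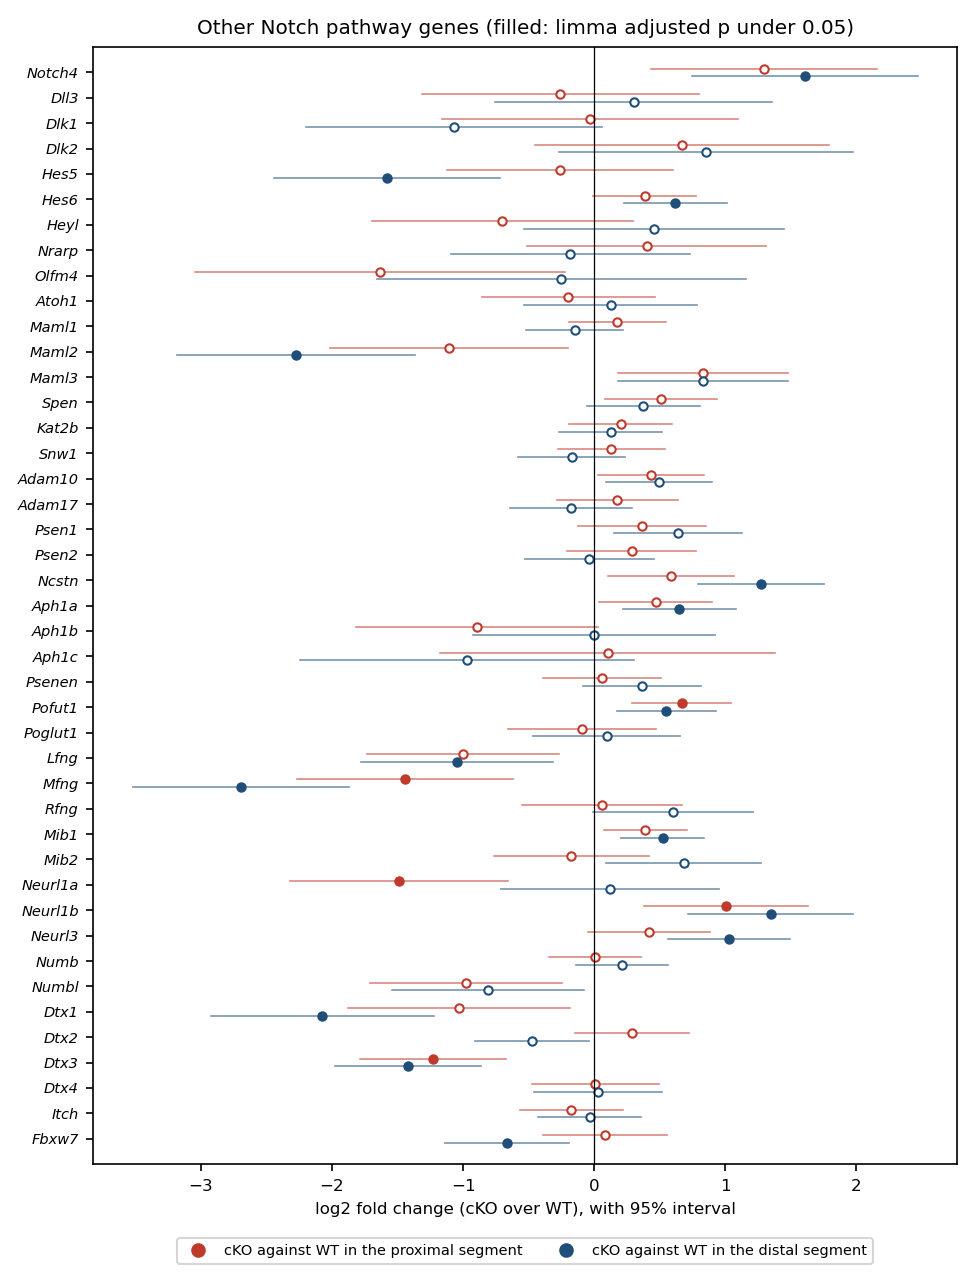
Log2 fold change of 43 other Notch pathway genes, cKO over WT, with 95% intervals from limma (x axis), in the proximal and distal segments (colours); filled points have an adjusted p under 0.05. Mfng lies farthest left among filled points, at -2.70 in the distal segment, and 15 distal points against 5 proximal ones are filled.

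Proximally 2 of the 43 rose (Pofut1 and Neurl1b) and 3 fell (Dtx3, Mfng and Neurl1a), where 4.21% of all genes were higher and 4.05% lower. Dtx3 averaged 74.9 ± 5.12 in cKO and 180 ± 40.9 in WT proximal libraries (SD, n = 3 each) and fell by 1.23 (limma adjusted p = 0.0128). Neurl1a fell by 1.49 (limma adjusted p = 0.0323), Mfng fell by 1.44 (limma adjusted p = 0.0349) and Pofut1 rose by 0.67 (limma adjusted p = 0.0342). The count of 5 was 12 with DESeq2, 0 with mitochondrial share as a covariate or without cKO proximal 2, 1 without WT proximal 3, 2 without WT proximal 2 or cKO proximal 1, and 3 without cKO proximal 3. Without both cKO libraries numbered 1 it was 2 proximally and 7 distally. The distal count of 15 was 4 with that covariate, 9 with the distal groups alone in the fit and 7 without cKO distal 1.

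Between segments, within cKO Neurl1a (2.29, limma adjusted p = 0.00148), Notch4 (2.21, limma adjusted p = 0.00255) and Neurl1b (1.18, limma adjusted p = 0.0188) rose distally, and Heyl and Dtx1 fell. Heyl, a target related to Hey1, fell by 2.07 (limma adjusted p = 0.0103). Within WT Heyl averaged 13.6 ± 3.86 in distal and 141 ± 55.5 in proximal libraries (SD, n = 3 each) and fell by 3.23 (limma adjusted p = 0.000257). Notch4 (1.89, limma adjusted p = 0.00395) and Hes5 rose in the distal WT segment, and Numb, which restrains Notch, fell by 0.62 (limma adjusted p = 0.0139), as did Neurl3. Hes5 had 15 reads in distal and 1 in proximal WT libraries (limma adjusted p = 0.0101). The 5 of 43 within WT stand beside 24.1% of all genes, and the 5 of 43 within cKO beside 10.5%. The count of 5 within WT was 9 with the replicate number as a block, and 8 with TMM scaling, with DESeq2 or without cKO distal 3. The count of 5 within cKO was 2 without cKO proximal 1 or without both cKO libraries numbered 1, and 3 without cKO proximal 3 or cKO distal 2. None of the 43 passed the interaction test (limma), and 7 had an unadjusted p under 0.05.

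The genes whose log2 values ran closest to each changed member over the 12 libraries were found among 10217 well-covered genes, as the smallest root mean square difference after centring. Closest to Notch2 were Hdac7 (0.21), Pip4k2b (0.25) and Cdc25b (0.26). Closest to Dll1 were Sulf2 (0.23), Mgst2 (0.23) and Agrn (0.24), and closest to Dll4 were Oplah (0.27), Slc15a1 (0.27) and Abca7 (0.31). Jag1 had no neighbour as near, with Slc7a4 (0.42), Pik3r3 (0.44) and Ppl (0.44). Jag2 ran with Sgk3 (0.36), Cldn4 (0.36) and Capn2 (0.37). Nearest to Hes1 were Sdad1 (0.18), Tars2 (0.19) and Ints2 (0.20), and to Hey1 Phtf2 (0.32), Dck (0.38) and Ap1s2 (0.39). All of these share libraries and depth with the gene they are set beside, and the values are descriptions.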

How the data were processed

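RNA-seq was deposited as a single table with 17175 genes and 12 libraries. The authors used STAR and DESeq2 1.28.1 with mm10, per the submitters' processing notes, and cDNA came from a NuGEN Ovation amplification kit, per the labels' protocols. The deposited signal is a scaled read count: every one of 206100 values equals (reads + 1) times a step per column, within 0.001 steps, so whole reads were recovered (100% of values). The deposited log2 fold change, its score (test statistic) and its p-value columns equal cKO proximal over WT distal by the fold change, mix both factors and were not used. Reads per library ran from 11242024 to 17722756. Intervals on counts and the floor of 3 reads per library cover counting error only.

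Log2(value + 1) was fitted with limma 3.58.1 (R 4.3.3, trended variance) on 4 group means over all 12 libraries, with Benjamini-Hochberg adjustment over all genes and a threshold of 0.05. A filter of value at least 1 in 3 libraries removed 0 genes. The procedure was tested on simulated data. Alternatives were a pseudocount of 5, a mean of at least 10, no filter, TMM factors, edgeR 4.0.16 (quasi-likelihood) and DESeq2 1.42.0 on recovered reads, the replicate number as a block, mitochondrial share as a covariate, only the groups compared, leaving out both cKO libraries numbered 1, and leaving out each library. Deviations from group means correlated between same-numbered segments of a genotype at 0.158, 0.215 and 0.323 in cKO and 0.314, 0.173 and 0.308 in WT. Each library correlated most with its own number in the other segment of its genotype. Numbers were not compared between genotypes. The replicate block joined same-numbered libraries within a genotype, and the main fit did not use this pairing.

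The genes and lists were chosen with earlier results of these data known. All 10 genes are described; of 45 other pathway genes 43 were measured (1 more is not reported here), up to 4 with the smallest p per comparison are given with values, and the 3 genes most like each changed member are named. Coordinates and exon lengths are from GENCODE M21 and promoters from RefSeq.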

Additional observations from a re-analysis of the deposited data

How the results depend on the processing

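Of 12 calls on the 10 genes, 5 held under all 22 alternatives: the distal genotype calls of Dll1, Jag1 and Notch2 and the WT segment calls of Dll1 and Notch2. All the others were lost in some, as given with each gene. The alternatives are not independent checks. The filter removed 0 genes, so the fit with no filter was the main fit and could change no call. Leaving out a library from outside the groups compared left the fold change as it was. Called members numbered 1 with edgeR, 1 with mitochondrial share as a covariate and 0 without both cKO libraries numbered 1 in the proximal comparison (2 as reported). In the distal comparison (7) they numbered 3 with the covariate and 4 without those libraries, and within cKO (1) 0 without them. Leaving out each library gave 0 to 4 proximal, 4 to 8 distal, 0 to 1 within cKO, 2 to 3 within WT and 0 to 1 for the interaction.

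Over all genes, the proximal count of 1418 became 2322 with DESeq2, 292 with the covariate and 766 without both cKO libraries numbered 1. The distal count of 4297 became 1356 with the covariate and 2160 without those libraries, and the count of 1806 within cKO became 2785 with DESeq2 and 862 without them. The interaction count of 99 became 168 with a pseudocount of 5, 59 with edgeR, 595 with DESeq2, 434 with the replicate block and 2 without both cKO libraries numbered 1. The replicate block also gave 2561 genes within cKO and 5046 within WT, against 1806 and 4137 in the main fit. Besides these counts, the pathway count and the Hey1 call within WT, the replicate block changed no call of a member. Leaving out each library gave 580 to 1700 proximal, 2466 to 4954 distal, 1031 to 1938 within cKO, 2741 to 4441 within WT and 7 to 266 for the interaction. The causes were not tested.

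Direction turned in 34 values of 17 results, none of them called. Proximally Notch1 was 0.067 with the covariate and Notch3 -0.00409 with TMM. Notch3 within cKO was 0.17 and the Rbpj interaction 0.033 without both cKO libraries numbered 1, the Hey1 interaction was 0.93 with edgeR, and within WT Dll4 was 0.00586 and Jag2 -0.18 with the covariate. Leaving out each library gave ranges that crossed 0 for Notch1 (-0.24 to 0.049), Notch3 (-0.093 to 0.36) and Dll4 (-0.45 to 0.16) proximally and Notch3 distally (-0.46 to 0.96). Within cKO the ranges were -1.31 to 0.11 for Notch3, -0.26 to 0.11 for Dll1, -0.82 to 0.052 for Jag2 and -0.047 to 0.21 for Rbpj. Within WT they were -0.19 to 0.10 for Notch1, -0.73 to 0.12 for Dll4, -0.50 to 0.11 for Jag1 and -0.14 to 0.23 for Jag2. For the interaction they were -0.56 to 0.85 for Notch3, -0.85 to 0.022 for Jag2 and -0.40 to 0.041 for Hes1. Hey1 and Notch3 lie under the mean of 10, so that alternative has no value for them, and the fit of only the groups compared has none for the interaction.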
